A study of Mus musculus with 8 samples.

Results

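The small heat shock proteins of mouse heart were followed as 7 genes, Cryab, Hspb1, Hspb2, Hspb3, Hspb6, Hspb7 and Hspb8, found in the deposited tables by their NCBI Gene numbers, 7 of 18215 gene numbers in all. All 7 passed the filter on low counts and were tested. The libraries came from polyadenylated mRNA of whole heart, 4 from mice with a Carns transgene (TG) and 4 from wild-type mice (WT), with groups and replicate numbers taken from the sample titles. The question the design states is how expression differs with and without the transgene, whose product, carnosine synthase, makes histidyl dipeptides such as carnosine. The labels name neither the promoter that drives the transgene nor the strain, age or sex of the mice. They also leave unsaid whether samples of a group are separate animals, so p-values measure only how these samples vary, and that variation may be technical.

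Small heat shock proteins share an alpha-crystallin domain and assemble into oligomers that hold unfolding proteins in solution without using ATP, until chaperones of the Hsp70 family refold them or they are degraded. Striated muscle is unusually rich in them, and several bind desmin filaments, titin, filamin C or actin at the Z disc. Cryab (alpha B-crystallin), Hspb1 (Hsp25 in the mouse), Hspb6 (Hsp20) and Hspb8 (Hsp22) occur in many tissues, while Hspb2, Hspb3 and Hspb7 are largely restricted to heart and skeletal muscle. Changed forms of the human CRYAB, HSPB1, HSPB3 and HSPB8 proteins are known from inherited muscle or nerve disease.

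None of the 7 members passed the test between TG and WT. The number of members with an adjusted p below 0.05 was 0 of 7 with edgeR's quasi-likelihood test (Benjamini-Hochberg adjustment over 12670 genes), where 0.0158% of all tested genes passed. In each direction taken alone the count was also 0 of 7, against 0.00789% of all genes called higher and 0.00789% called lower in TG. At an unadjusted p below 0.05 the count was 0 of 7 with edgeR, against 3.49% of all tested genes, and 2 of 7 with DESeq2 (Hspb1 and Hspb6), against 2.72%. DESeq2 also called 0 of 7 after adjustment, against 0.118% of all genes. The groups overlapped in every member, so 0 of 7 were separated, where 2.53% of all tested genes were. The adjusted p was 0.9995 for each of the 7 by edgeR. Cryab, Hspb1 and Hspb3 had positive and Hspb2, Hspb6, Hspb7 and Hspb8 negative log2 fold changes, with a median of -0.03 against -0.0017 over all tested genes. The median size of the log2 fold change, without its sign, was 0.17 in the members and 0.10 over all tested genes.

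The promoters of the members were read for inverted pairs of the unit that heat shock factors bind. These factors activate chaperone genes under protein stress. RefSeq windows of 300 bases on GRCm38.p6 (250 before to 50 after the start) were on hand for 5 members, and Cryab and Hspb2 had no entry. The windows were searched on both strands for inverted heat shock units, GAANNTTC and TTCNNGAA, for the TATA box TATAAA, and for the MEF2 and CArG boxes of muscle genes, a choice made after the sequences were seen. For Hspb6, which has 2 entries, the window that holds the start of the counted transcript was used. GAANNTTC stood in 4 of the 5 windows, those of Hspb1, Hspb3, Hspb6 and Hspb8, and in 7.86% of 32851 promoter windows of the same length. TTCNNGAA (8.52% of all windows) and the CArG box (1.63%) were in none of the 5. Because the sequences were seen before the choice, these shares carry no test. These 4 windows are printed 5′ to 3′ in the direction of the gene, with the matches in capitals, to show where the unit lies in each. They lie at chr5:135887669-135887968 (plus strand), chr7:30553051-30553350 (plus), chr5:116422815-116423114 (minus) and chr13:113663627-113663926 (minus).
Hspb1: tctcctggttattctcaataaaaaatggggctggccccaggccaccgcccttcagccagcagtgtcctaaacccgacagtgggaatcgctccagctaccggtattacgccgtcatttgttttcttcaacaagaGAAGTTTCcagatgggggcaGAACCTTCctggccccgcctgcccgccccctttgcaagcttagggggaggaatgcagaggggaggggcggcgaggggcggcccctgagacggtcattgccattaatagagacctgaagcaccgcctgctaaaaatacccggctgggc
Hspb6: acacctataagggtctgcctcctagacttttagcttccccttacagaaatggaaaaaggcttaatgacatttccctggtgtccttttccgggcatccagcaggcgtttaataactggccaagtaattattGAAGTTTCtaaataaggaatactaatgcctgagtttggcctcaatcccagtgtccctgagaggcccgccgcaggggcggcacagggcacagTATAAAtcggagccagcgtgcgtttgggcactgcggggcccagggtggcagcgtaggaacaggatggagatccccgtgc
Hspb8: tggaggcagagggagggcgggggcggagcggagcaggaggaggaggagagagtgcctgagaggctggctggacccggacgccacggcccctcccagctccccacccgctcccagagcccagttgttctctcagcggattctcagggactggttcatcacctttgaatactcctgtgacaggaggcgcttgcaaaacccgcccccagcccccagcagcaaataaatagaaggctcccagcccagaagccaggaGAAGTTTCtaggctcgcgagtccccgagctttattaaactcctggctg
Hspb3: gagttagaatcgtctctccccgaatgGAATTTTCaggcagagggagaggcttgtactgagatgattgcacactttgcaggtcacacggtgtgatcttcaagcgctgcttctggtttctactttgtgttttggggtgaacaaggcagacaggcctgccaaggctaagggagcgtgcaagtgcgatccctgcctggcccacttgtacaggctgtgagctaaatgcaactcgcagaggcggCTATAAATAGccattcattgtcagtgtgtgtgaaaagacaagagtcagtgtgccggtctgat

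The same 8 bases, GAAGTTTC, began 117 bases before the start in Hspb1 and 120 bases before it in Hspb6, and in Hspb8 they lay just after it, at bases 253 to 260 of the window. Hspb1 held a second unit, GAACCTTC, that began 97 bases before the start. The unit of Hspb3, GAATTTTC, began 224 bases before the start. Hspb3 also held a MEF2 box (0.56% of all windows). The letters TATAAA lie inside that box and began 11 bases before the start. In Hspb6 TATAAA began 29 bases before the start (TATAAA stood in 13.62% of all windows). The Hspb7 window held none of these sequences. A match describes letters in a window and does not show that a factor binds there.

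Carns1, the targeted gene, stood at 19071 to 24288 counts per 1000000 (CPM) in the TG libraries and at 44.5 to 73.3 CPM in the WT ones, the direction the labels give. CPM are counts per 1000000 on library sizes scaled by edgeR's TMM method. Carns1 and Lrrc15 were the 2 genes of 12670 past the threshold, the first higher and the second lower in TG. Library totals fell into deeper libraries (7394143 to 7897629 counts: TG replicates 1 and 3, WT replicates 1 and 2) and shallower ones (6261193 to 6557621: TG replicates 2 and 4, WT replicates 3 and 4). Heart muscle markers were abundant in all 8, with the summed level of 10 cardiomyocyte markers at 93133 to 109335 CPM for TG and 94827 to 110113 CPM for WT. TG replicate 2 stood apart by tissue markers: the 7 adipocyte markers summed to 886 CPM there and to at most 20.2 CPM in a WT library. Car3, one of them, stood at 393 CPM in TG replicate 2, at 18.1 in TG replicate 4 and at 4.38 or less in the other libraries. The atrial light chain Myl7 stood at 203, 46.8 and 18.8 CPM or less in the same order. In TG replicates 1 and 3 and WT replicates 2 and 3 Myl7 was at 1.35 to 2.87 CPM and the atrial marker Sln at 0.261 or less. Nppa, also on the atrial list, stood at 56.7 to 190 CPM there, and the cardiomyocyte marker Myl2 at 8816 to 10013 CPM. How much atrium each sample held was not tested. Skeletal myosins Myh1, Myh2 and Myh4 reached at most 1.4 CPM in any library, so their defining markers were near 0. In whole tissue, fewer cells of a type and less RNA per cell cannot be told apart.

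**Figure D1:**
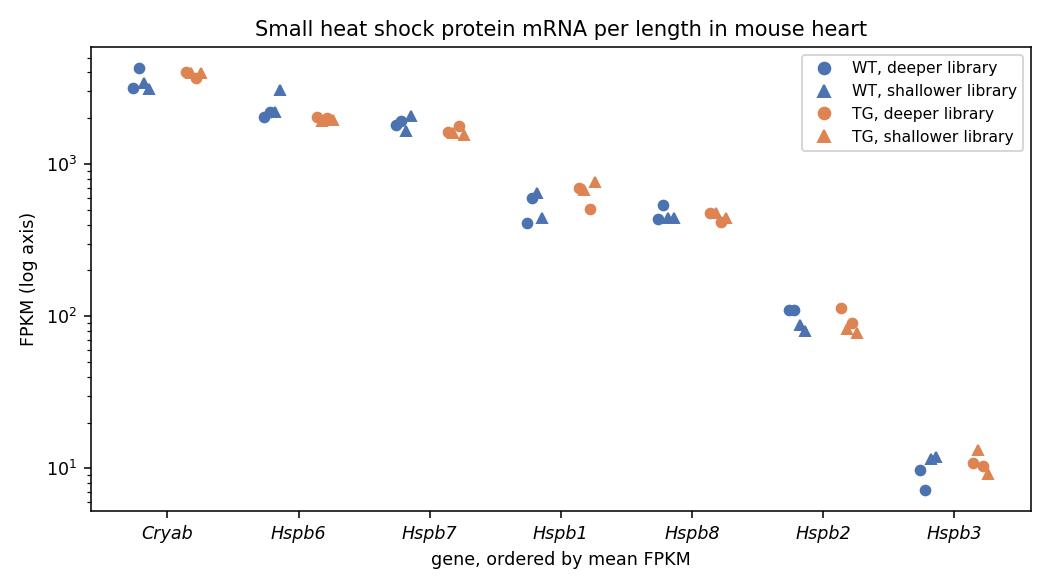
FPKM of each of the 7 genes (log axis) in 4 WT (blue) and 4 TG (orange) libraries, circles for deeper and triangles for shallower libraries. Cryab lies highest, between 3121 and 4243 FPKM, and Hspb3 lowest, between 7.18 and 13.2 FPKM, while WT and TG points overlap in every gene.

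Levels between genes were compared per length, as FPKM (fragments per kilobase and per 1000000 fragments). Cryab was the most abundant, at 3692 ± 433 FPKM, and ranked between 15 and 21 among all genes of a library. Hspb6 followed at 2170 ± 383 FPKM (rank 21 to 37) and Hspb7 at 1751 ± 177 FPKM (rank 29 to 46). Hspb1 stood at 591 ± 128, Hspb8 at 457 ± 38, Hspb2 at 93.8 ± 14.8 and Hspb3 at 10.5 ± 1.8 FPKM (SD over all 8 libraries in each case). Most of this order held library by library: Cryab was above Hspb6 and Hspb6 above Hspb7 in 8 of 8 libraries, although the FPKM ranges of Hspb6 and Hspb7 overlapped. Hspb1 was above Hspb8 in 6 of 8 libraries, and their ratio ran from 0.949 to 1.74, so these neighbours were not separated. The steps from Hspb7 to Hspb1 (ratio 2.02 to 4.72), from Hspb8 to Hspb2 (3.95 to 5.74) and from Hspb2 to Hspb3 (6.22 to 15.3) were seen in every library. Together the 7 genes took 1.20% to 1.25% of all counts in TG and 1.18% to 1.40% in WT.

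**Figure D2:**
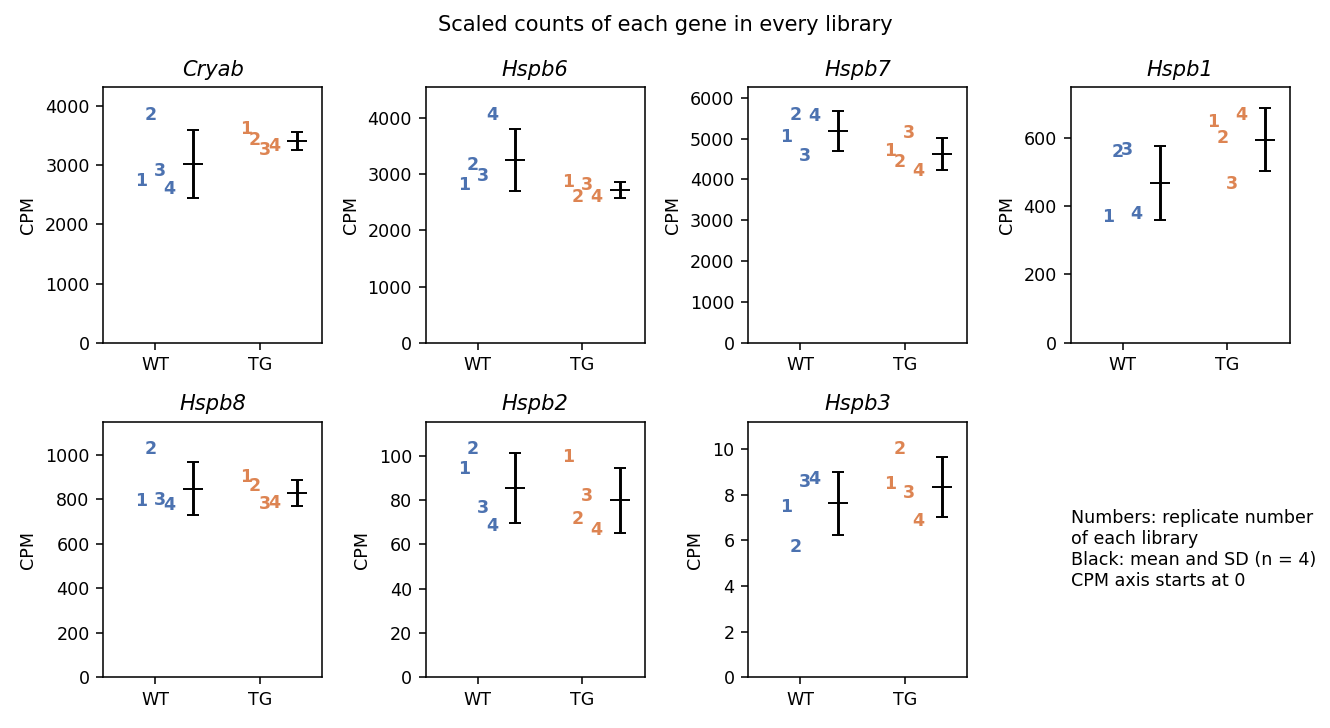
CPM of each gene (axes start at 0) in every library, each printed as its replicate number, with the group mean and SD (n = 4) in black. For Cryab and Hspb6 the TG libraries lie close together, and the WT spread is set by WT replicate 2 in Cryab (3857 CPM) and WT replicate 4 in Hspb6 (4063 CPM).

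Cryab, which binds desmin and titin and shields them from aggregation, stood at 3614, 3428, 3253 and 3333 CPM in TG replicates 1 to 4 and at 2735, 3857, 2904 and 2599 CPM in WT replicates 1 to 4. The 4 TG values lay above 3 of the WT values and below WT replicate 2, so the groups overlapped through that library alone. TG averaged 3407 ± 155 CPM and WT 3024 ± 569 (SD, n = 4 per group), a log2 fold change of 0.17 (SE 0.13, edgeR adjusted p = 0.9995). The 95% interval of the ratio of TG to WT ran from 0.927 to 1.37. Without WT replicate 2 the log2 fold change was 0.31, with an unadjusted p of 0.011 and an adjusted p of 1.0 by edgeR.

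Hspb1, whose oligomers come apart when the kinase Mapkapk2 phosphorylates it and which guards the actin skeleton, had the largest positive fold change of the 7. It stood at 646, 599, 464 and 667 CPM in TG replicates 1 to 4 and at 368, 558, 565 and 377 CPM in WT replicates 1 to 4. TG replicate 3 lay below WT replicates 2 and 3, and the other TG libraries lay above every WT library. TG averaged 594 ± 91 CPM and WT 467 ± 109 (SD, n = 4 per group), a log2 fold change of 0.35 (SE 0.17, unadjusted p = 0.058, adjusted p = 0.9995, edgeR). The 95% interval of the ratio, 0.991 to 1.63, includes 1.

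Hspb6, a target of cyclic AMP dependent protein kinase in cardiomyocytes and smooth muscle, had the largest negative fold change. It stood at 2869, 2602, 2815 and 2589 CPM in TG replicates 1 to 4 and at 2817, 3161, 2976 and 4063 CPM in WT replicates 1 to 4. WT replicate 4 was far above all other libraries, and TG replicate 1 lay above WT replicate 1. TG averaged 2719 ± 144 CPM and WT 3254 ± 557 (SD, n = 4 per group), a log2 fold change of -0.26 (SE 0.13, unadjusted p = 0.059, adjusted p = 0.9995, edgeR), with a 95% interval of the ratio from 0.692 to 1.01. Without WT replicate 4 the log2 fold change was -0.14 (edgeR unadjusted p = 0.22). In that library smooth muscle actin Acta2 stood at 750 CPM, against 311 to 320 CPM in the other WT libraries, and skeletal actin Acta1 at 1401 against 179 to 415 CPM. Other smooth muscle markers did not follow Acta2. Tagln, at 75.2 CPM, was the lowest of any library there, and Smtn, at 169 CPM, the lowest in WT. Smooth muscle myosin Myh11 (105 CPM), Cnn1 (8.71 CPM) and Myocd (56.7 CPM) lay within the range of the other WT libraries. The 9 smooth muscle and pericyte markers summed to 4977 to 5798 CPM in WT and 4729 to 5358 in TG. Most of that sum is desmin, Des (3593 to 4308 CPM in WT), which cardiomyocytes also express, so it says little of smooth muscle. Of the pericyte markers, Rgs5 stood at 532 CPM in WT replicate 4, the highest of any library, and Pdgfrb at 191 CPM, the highest in WT. Rgs5 was split by library depth, at 447 to 532 CPM in the shallower and 271 to 306 CPM in the deeper libraries. In WT replicate 3 Rgs5 stood at 492 CPM, and in TG replicate 3 Pdgfrb stood at 191.7 CPM. The part of smooth muscle cells and pericytes in the Hspb6 values was not tested.

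Hspb7, which binds filamin C and is needed for thin filament length control in the developing heart, gave the highest CPM of the family. It stood at 4690, 4430, 5130 and 4209 CPM in TG replicates 1 to 4 and at 5045, 5586, 4564 and 5544 CPM in WT replicates 1 to 4. Like Hspb6 it had all 4 TG values below the WT median. TG replicate 3 lay above WT replicates 1 and 3, and TG replicate 1 above WT replicate 3. TG averaged 4615 ± 396 CPM and WT 5185 ± 481 (SD, n = 4 per group), a log2 fold change of -0.17 (SE 0.11, edgeR adjusted p = 0.9995), with a 95% interval of the ratio from 0.752 to 1.05. Its expected counts were not whole numbers in any library, while those of the other 6 genes were.

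Hspb8, which works with the cochaperone Bag3 to hand damaged Z disc proteins to autophagy, had the log2 fold change nearest to 0. It stood at 899, 858, 778 and 782 CPM in TG replicates 1 to 4 and at 792, 1025.5, 798 and 775 CPM in WT replicates 1 to 4. WT replicate 2 was the highest, and the other 7 libraries lay between 775 and 899 CPM. TG averaged 829.3 ± 59.2 CPM and WT 848 ± 119 (SD, n = 4 per group), a log2 fold change of -0.03 (SE 0.12, edgeR adjusted p = 0.9995). The 95% interval of the ratio, 0.822 to 1.16, spans changes of that size in either direction.

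Hspb2, a binder of the myotonic dystrophy kinase Dmpk, stood at 99.6, 71.5, 82.0 and 66.5 CPM in TG replicates 1 to 4 and at 94.3, 103, 76.6 and 68.5 CPM in WT replicates 1 to 4. Its values were separated by library depth and not by group. The 4 deeper libraries lay at 82.0 CPM or above and the 4 shallower ones at 76.6 or below (94.7 ± 9.2 against 70.8 ± 4.4 CPM, SD). This split was not particular to Hspb2. The cardiomyocyte markers Mb (16454 CPM or above against 15885 or below) and Tnni3 showed it too, and Pln showed it in reverse. The share of all tested genes so separated was not counted, and the part of depth in the Hspb2 values was not tested. TG averaged 79.9 ± 14.6 CPM and WT 85.6 ± 15.8 (SD, n = 4 per group), a log2 fold change of -0.10 (SE 0.16, edgeR adjusted p = 0.9995). Hspb2 and Cryab are neighbours on chromosome 9 on opposite strands and share 252 exonic bases in GENCODE M21. The labels do not say whether counting used strand, and overlap in the transcripts that were counted was not examined. Cryab was 28.6 to 50.9 times as abundant as Hspb2 in FPKM. Whether reads of Cryab entered the Hspb2 counts was not tested, which leaves those counts uncertain. The expected counts of both genes were whole numbers in every library.

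Hspb3, which pairs with Hspb2 in muscle cells, was the rarest, with 42 to 65 counts per library. It stood at 8.48, 9.99, 8.06 and 6.83 CPM in TG replicates 1 to 4 and at 7.47, 5.73, 8.57 and 8.71 CPM in WT replicates 1 to 4. The highest and the second lowest of the 8 values were both TG libraries. TG averaged 8.34 ± 1.30 CPM and WT 7.62 ± 1.38 (SD, n = 4 per group), a log2 fold change of 0.13 (SE 0.19, edgeR adjusted p = 0.9995). At these counts the 95% interval of the ratio, 0.826 to 1.46, was wide.

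**Figure D3:**
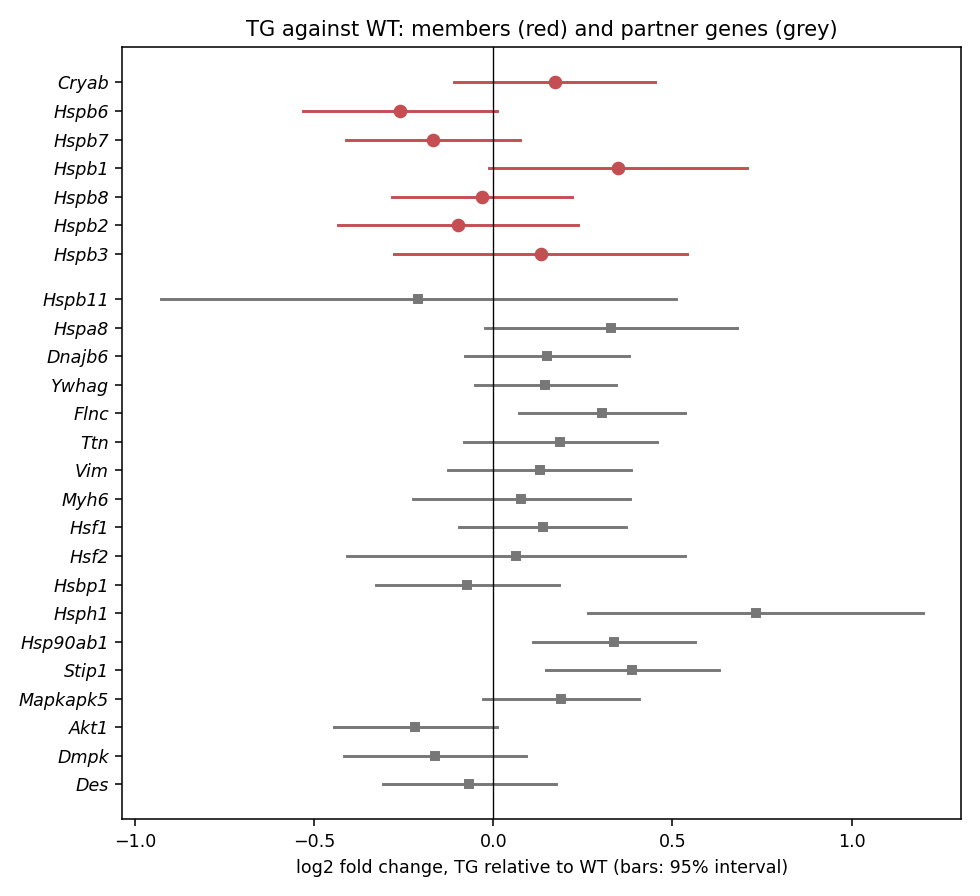
Log2 fold change of TG relative to WT with its 95% interval for the 7 genes (red) and for partner genes chosen by a rule (grey). All 7 red intervals include 0, and among the grey ones those of Flnc, Hsph1, Hsp90ab1 and Stip1 do not, without passing the threshold after adjustment.

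Without TG replicate 2, the library with adipocyte markers, the log2 fold changes were 0.17 for Cryab, 0.34 for Hspb1, -0.05 for Hspb2, 0.04 for Hspb3, -0.24 for Hspb6, -0.15 for Hspb7 and -0.05 for Hspb8, and none of them was called by edgeR. Within the depth classes, 2 libraries per group each, the sizes differed. In the deeper libraries the log2 fold change was 0.06 for Cryab, 0.26 for Hspb1, -0.07 for Hspb6 and -0.11 for Hspb7. In the shallower libraries it was 0.30 for Cryab, 0.43 for Hspb1, -0.44 for Hspb6 and -0.22 for Hspb7. The adjusted p was at least 0.69 for each of these in either class by edgeR, and the difference between the classes was not tested. For the other 3 genes the values ran from -0.12 to 0.32 in the deeper and from -0.07 to 0.06 in the shallower libraries.

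**Figure D4:**
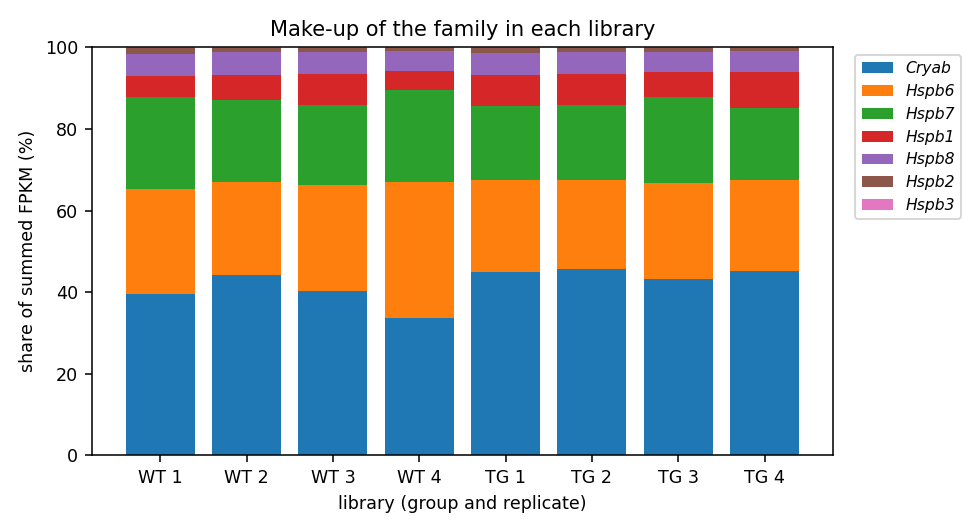
Share of the summed FPKM of the 7 genes (%, bars from 0 to 100) taken by each gene in every library. Cryab takes 43.2% to 45.7% of it with the transgene and 33.8% to 44.2% without.

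The make-up of the family, as shares of its summed FPKM, varied less between the TG libraries than between the WT libraries for Cryab and Hspb6. Cryab took 44.8% ± 1.1 of the sum in TG and 39.4% ± 4.3 in WT (SD, n = 4 per group). Hspb6 took 22.5% ± 0.8 and 27.0% ± 4.5, Hspb7 18.8% ± 1.6 and 21.2% ± 1.6, and Hspb1 7.56% ± 1.17 and 5.93% ± 1.26. Hspb8 held 5.16% ± 0.23 in TG and 5.27% ± 0.35 in WT, and Hspb2 and Hspb3 about 1.04% and 0.125% in TG. The ratio of Cryab to Hspb6 was 2.00, 2.10, 1.83 and 2.04 in TG replicates 1 to 4 and 1.53, 1.94, 1.55 and 1.01 in WT replicates 1 to 4. WT replicate 2 lay within the TG range, so the groups overlapped. The coefficient of variation of the CPM was 4.56% in TG and 18.8% in WT for Cryab, and 5.30% and 17.1% for Hspb6. It was lower in TG for the other members too, by little for Hspb2 (18.3% and 18.5%) and Hspb7 (8.58% and 9.29%). WT replicate 4 stood apart in both shares, at 33.8% for Cryab and 33.3% for Hspb6. These shares and spreads were examined after the values were known and carry no test. The spread over all tested genes was not examined.

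**Figure D5:**
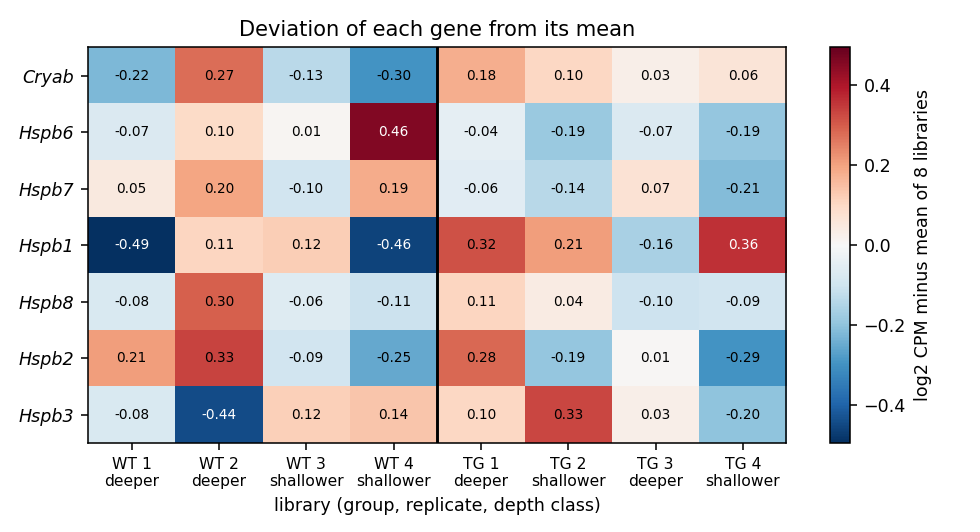
Log2 CPM of each gene in every library minus its mean over the 8 libraries (red above, blue below), WT left and TG right of the line. Cryab and Hspb1 are low and Hspb6 high in WT replicate 4 (-0.30, -0.46 and 0.46), while Cryab, Hspb2 and Hspb8 are highest in WT replicate 2.

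Correlations between members over the 8 libraries had both signs, with r from -0.672 to 0.772. With 8 libraries, shared variation of moderate strength could be missed by the test. Of the 21 pairs, 0 had a correlation with an adjusted p below 0.05 (exact permutation test, two-sided, Benjamini-Hochberg over 21 pairs, log2 CPM), and 3 had an unadjusted p below 0.05. Cryab and Hspb8 had r = 0.772 and rho = 0.810 (n = 8, exact permutation p = 0.0156 and 0.0218, adjusted 0.164 and 0.403). Without the 2 libraries farthest from the Cryab median r was 0.827, and with the group means removed it was 0.953. Hspb6 and Hspb7 had r = 0.748 and rho = 0.738 (n = 8, exact permutation p = 0.0156 and 0.0458, adjusted 0.164 and 0.403), and r was 0.552 without the farthest 2 libraries and 0.596 with the group means removed. Cryab and Hspb1 had r = 0.761 and rho = 0.619 (n = 8, exact permutation p = 0.0327 and 0.115, adjusted 0.229 and 0.483). Without the 2 libraries farthest from the Cryab median r was 0.211, so the relation rested on them in that trim. It was 0.665 with the group means removed and 0.643 to 0.842 with any single library left out. Cryab and Hspb2, the neighbours on chromosome 9, had r = 0.422 and rho = 0.476 (n = 8, exact permutation p = 0.287 and 0.243, adjusted 0.548 and 0.638). Hspb1 and Hspb7 ran in opposite directions, with r = -0.672 and rho = -0.714 (n = 8, exact permutation p = 0.0787 and 0.0576, adjusted 0.331 and 0.403). Removing the means of the depth classes gave r of 0.734, 0.913, 0.899, 0.259 and -0.673 for these 5 pairs in the same order. Each depth class holds 4 libraries, too few for a correlation of its own, and all genes of a library share its scaling.

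Genes with the most similar profile to each member were taken from 8530 genes at a mean of at least 10 CPM, by the smallest root mean square difference of centred log2 CPM over the 8 libraries. For Cryab these were Trappc3 (0.059) and Scamp3 (0.073), and for Hspb8 they were Clu (0.037), which encodes the secreted chaperone clusterin, and Mtg2 (0.041). Hspb1 had the least close matches, Serpinh1 (0.14), the collagen chaperone of the endoplasmic reticulum, and Coa4 (0.15). The others were Aar2 (0.035) and Prdx2 (0.040) for Hspb2, Fzd4 (0.089) and Zfp422 (0.096) for Hspb3, P2ry2 (0.079) and Slco3a1 (0.082) for Hspb6, and Plekhg2 (0.049) and Syk (0.051) for Hspb7. The closest other member was Hspb8 for Cryab, at 0.119, and 69 genes outside the family were closer than that.

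Other genes listed with the alpha-crystallin family were scarce. Cryaa, also on that list, was not found among the gene numbers of any library. Hspb11, which acts in cilia rather than as a muscle chaperone, stood at 2.74 ± 0.78 CPM with the transgene and 3.16 ± 1.21 without (SD, n = 4 per group; log2 fold change -0.21, SE 0.33, edgeR adjusted p = 0.9995). Hspb9 and Odf1, both known from testis, had at most 1 count in a library, below the level of 3 counts.

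Partners of Hspb8 in chaperone-assisted autophagy were measured in 13 genes, and 0 passed in either direction, with 7 positive and 6 negative log2 fold changes and a median of 0.01. Bag3 itself stood at 622 ± 52 CPM with the transgene and 599 ± 42 without, and the ratio of Hspb8 to Bag3 in FPKM was 1.64 to 2.06 in TG and 1.90 to 2.25 in WT. Hspa8, the constitutive Hsp70 of this pathway and the most abundant of the list, stood at 2754 ± 518 and 2192 ± 442 CPM (log2 fold change 0.33, SE 0.16). Ywhag, a 14-3-3 adaptor, stood at 354 ± 17 and 320 ± 10 CPM, and Dnajb6, an Hsp40 chaperone of the Z disc, at 86.1 ± 4.7 and 77.6 ± 8.4 (SD, n = 4 per group). None of these passed the threshold (edgeR adjusted p = 0.9995 for each).

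Of 12 filament and Z disc proteins that small heat shock proteins bind, 0 passed, with 7 positive and 5 negative log2 fold changes and a median of 0.05. Flnc, filamin C, the actin crosslinker bound by Hspb7 and cleared through Bag3, stood at 648, 580, 731 and 633 CPM in TG replicates 1 to 4 and at 514, 556, 472 and 558 CPM in WT replicates 1 to 4. Its 4 TG values lay above its 4 WT values, which was true of 2.53% of all tested genes, at a log2 fold change of 0.30 (SE 0.11, unadjusted p = 0.014, adjusted p = 0.9995, edgeR). Titin, Ttn, stood at 1727 ± 255 and 1517 ± 125 CPM, vimentin, Vim, at 400 ± 65 and 366 ± 15, and the cardiac myosin Myh6 at 27063 ± 3823 and 25646 ± 3737 CPM (SD, n = 4 per group). Desmin, Des, the filament whose aggregates mark disease of mutant Cryab, stood at 3709 ± 368 CPM with the transgene and 3885 ± 310 without. Of 11 genes of inherited myofibrillar myopathy, which share several of these, 0 passed and the median was 0.06 (7 positive and 4 negative).

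The heat shock factors, which drive Hspb1 and Cryab under heat, were tested as Hsf1, Hsf2, Hsf4 and the inhibitor Hsbp1, and 0 of 4 passed (median 0.06). Hsf1 stood at 75.9 ± 8.1 CPM with the transgene and 69.0 ± 4.0 without, Hsf2 at 11.8 ± 3.1 and 11.3 ± 2.6, and Hsbp1 at 119 ± 17 and 125 ± 11 (SD, n = 4 per group). Of 15 chaperones and cochaperones that respond to heat to differing degrees 0 passed. The list mixes strictly inducible genes (Hspa1a, Hspa1b), constitutive ones (Hspa8, Hsp90ab1) and the mitochondrial chaperonins Hspd1 and Hspe1. A positive log2 fold change was found in 12 and a negative one in 3, where 49.54% of all tested genes had a positive one. The median was 0.22 against -0.0017 over all tested genes. Hsph1, a nucleotide exchange factor for Hsp70, stood at 88.9 ± 29.7 and 53.5 ± 9.2 CPM (log2 fold change 0.73, SE 0.22, adjusted p = 0.958), Hsp90ab1, the constitutive cytosolic Hsp90, at 2048 ± 106 and 1623 ± 159 (0.34, SE 0.10, adjusted p = 0.9995) and Stip1, the Hsp70 to Hsp90 linker, at 220 ± 17 and 168 ± 20 (0.39, SE 0.11, adjusted p = 0.883; SD, n = 4 per group, edgeR). In 2 of the 15, Hsp90ab1 and Stip1, the groups did not overlap, against 2.53% of all genes. Hsph1, Hsp90aa1, Dnaja1 and Hspa4l were highest in TG replicates 2 and 4, both shallower libraries. In TG replicate 3 Hsph1 stood at 55.6 CPM, below WT replicates 3 and 4 at 62.7 and 56.4 CPM. The 3 negative values were those of the inducible Hsp70 genes Hspa1a and Hspa1b and of the inducible Hsp40 gene Dnajb1. Dnajb1 stood at 30.1, 20.0, 22.1 and 23.5 CPM in TG replicates 1 to 4 and at 67.2, 71.9, 28.0 and 15.9 CPM in WT replicates 1 to 4 (log2 fold change -0.94, SE 0.37, edgeR adjusted p = 0.9995). The log2 fold change was -0.58 (SE 0.62) for Hspa1a and -0.93 (SE 0.71) for Hspa1b, near-identical copies whose counts are uncertain. All 3 were high in WT replicates 1 and 2 and low in WT replicates 3 and 4. The Hsp70 pair was also high in TG replicate 4, with Hspa1a at 80.8 and Hspa1b at 49.0 CPM, against 84.1 and 59.8 CPM in WT replicate 1. In the other TG libraries Hspa1a stood at 10.3 to 30.4 CPM and Hspa1b at 4.59 to 17.3 CPM. The unadjusted p was below 0.05 in 4 of the 15, with Hsph1, Hsp90ab1 and Stip1 higher and Dnajb1 lower in TG, against 3.49% of all genes.

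Kinases and binders that act on these proteins were tested in 16 genes, and 0 passed, with 10 positive and 6 negative log2 fold changes and a median of 0.03. Akt1, a kinase that binds Hspb1, stood at 338 ± 30 CPM with the transgene and 393 ± 32 without (log2 fold change -0.22, SE 0.10). Mapkapk5, a relative of Mapkapk2, stood at 72.8 ± 5.7 and 63.9 ± 2.6 CPM (0.19, SE 0.10), and Dmpk, the partner of Hspb2 and the most abundant of this list, at 721 ± 90 and 807 ± 77 (-0.16, SE 0.12; SD, n = 4 per group, edgeR adjusted p = 0.9995 for each of the 3).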

How the data were processed

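Polyadenylated mRNA of 8 mouse heart samples (4 TG, 4 WT) was sequenced, with extraction and library preparation at one institute, per the labels' protocols. The deposited tables give, per NCBI Gene number, an expected count that the authors left unnormalized and an FPKM value that the authors scaled per kilobase and per 1000000 fragments, per the file headers. The submitters' processing notes list Bowtie2 and mm8; no source used here names the counting program. Genes not listed in a library were taken as 0. Symbols came from NCBI's GRCm38.p6 table by gene number (18174 of 18215 matched), and GENCODE M21 and RefSeq positions (GRCm38) were used only to find overlapping genes and promoter windows, never joined to the counts by position.

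Expected counts were rounded. Totals ran from 6261193 to 7897629, where 3 counts are 0.380 to 0.479 CPM; such floors cover counting error only. Genes were kept with filterByExpr (minimum count 10, minimum total 15) and tested with edgeR 4.0.16 in R 4.3.3 (TMM, quasi-likelihood F-test, two-sided, group alone, Benjamini-Hochberg, threshold 0.05). SEs were taken from the log2 fold change and the square root of its F statistic, and 95% intervals use it with the fit's degrees of freedom. Log2 CPM used a prior count of 2. Alternatives were DESeq2 1.42.0, limma 3.58.1 on log2(FPKM + 1) and log2(FPKM + 0.1), other scalings and filters, the replicate number as a block, library weights, the depth class, and each library left out. Scripts were tested on simulated data.

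The members and the gene lists were chosen with earlier results of these data known. Named genes are the members, for each partner list the 3 genes of lowest unadjusted p and the one of highest level, any list gene past the threshold, and the 2 most similar profiles per member. Genes named for marker content, Bag3, Dnajb1, Hspa1a, Hspa1b, Carns1 and Lrrc15, and the scarce genes listed with the family, were added after their values were seen. Between any 2 libraries of one group, chi-square per degree of freedom was 4.29 or more, so no pair agreed within sampling noise.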

Additional observations from a re-analysis of the deposited data

Results flagged for a closer look

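In WT, Hspb6 stood at 3079 FPKM in replicate 4, against 2043 to 2195 FPKM in the other 3 libraries, a gap of 0.853 of the whole range, above Dixon's critical value for 4 samples. On the CPM scale the same library (4063 CPM) was the highest but its gap did not exceed that value. Hspb8 in WT stood at 1025.5 CPM (535.1 FPKM) in replicate 2, with gaps of 0.908 and 0.894 of the range, against 775 to 798 CPM in the other WT libraries. Chance gives such a gap in about 1 of 20 groups, and 28 groups of 4 were looked at (7 genes, TG and WT, CPM and FPKM), of which CPM and FPKM of a gene are not independent.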

How the results depend on the processing

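None of the 7 members was called under any of the 21 alternatives. The smallest adjusted p of a member was 0.504, for Hspb6 with the depth class as a covariate. Cryab, Hspb1, Hspb6 and Hspb7 kept their direction throughout, at log2 fold changes of 0.06 to 0.31, 0.25 to 0.45, -0.44 to -0.07 and -0.22 to -0.11. The direction turned for Hspb2 without WT replicate 2 (0.0022, the highest of -0.2195 to 0.0022 over single libraries left out), for Hspb8 without that library (0.0722, range -0.0727 to 0.0722) and in the shallower libraries only (0.0628), and for Hspb3 in the shallower libraries only (-0.0402). Among partner genes it turned for Hspb11 with voom and library weights (0.0197), for Vim in the deeper libraries only (-0.0251), for Hsf1 and Hsbp1 in the shallower libraries only (-0.0023 and 0.0272), for Hsf2 without TG replicate 2 or WT replicate 1 (-0.10 and -0.05, range -0.1031 to 0.1868) and for Myh6 without TG replicate 3 (range -0.0186 to 0.1801). The cause was not tested.

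The number of all genes past the threshold, 2 in the edgeR fit as designed, was 15 with DESeq2, 4 with no filter on low counts, 1 with limma at either pseudocount on the FPKM scale (1 or 0.1), 28 with the depth class as a covariate, 59 in the deeper and 4 in the shallower libraries only, 0 with Carns1 left out, and 1 to 3 when 1 library was left out. Of the partner genes 0 passed as designed, 1 with the depth class as a covariate (Hsph1, log2 fold change 0.69, adjusted p = 0.045), 4 in the deeper libraries only (Acta1 at 1.16, Hspa1b at -2.88, Hspa1a at -2.16 and Dnajb1 at -1.41) and 1 in the shallower libraries only (Hsph1 at 0.94, adjusted p = 0.039, all by edgeR with Benjamini-Hochberg adjustment). These partner calls rest on 2 libraries per group where a depth class was used alone, and Hspa1a and Hspa1b are near-identical copies whose counts depend on how shared reads were divided. The 4 genes called in the deeper libraries were not called in the shallower ones. There Hspa1a stood at 25.4 and 80.8 CPM in TG and 21.2 and 12.7 in WT. Hspa1b stood at 17.3 and 49.0 against 11.9 and 7.03 CPM, so both were higher in TG. Dnajb1 (20.0 and 23.5 against 28.0 and 15.9) and Acta1 (645 and 741 against 362.5 and 1401) overlapped between the groups.

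With the replicate number as a block 1 gene passed in all and 0 of 7 members. The numbers pair nothing in the labels, and the deviations of same-numbered libraries correlated at -0.283 to 0.402, with 1 of 4 TG and 2 of 4 WT libraries closest to their own number. No pair of members had an adjusted p below 0.05 on log2(FPKM + 1) either. Shares of the family are identical in TPM and FPKM by construction, so that alternative tests nothing. Hspb3 had the fewest counts, 42 to 65 per library.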
